A study of Mus musculus with 12 samples.

Results

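Alpha-, beta- and gamma-parvin, their partners ILK and PINCH-1, and 3 genes of non-muscle myosin II were followed across microglia and astrocytes sorted from mouse brain. The 8 genes are Parva, Parvb, Parvg, Ilk, Lims1, Myh9, Myh10 and Myl9, and all 8 were found by symbol among the 40853 gene symbols of the count tables. Parva and Myh10 had been selected on their low level in microglia labelled KO, measured in CPM, the counts of a gene scaled to a common library total. Their values in that contrast are therefore given as a description, without a test, and the same holds there for the 6 relatives and partners listed with them. The genotype contrast in astrocytes played no part in the choice. The comparison of both cell types does hold the KO microglia libraries, so for Parva and Myh10 it was tested in the WT animals alone. Those animals' microglia are the WT side of the contrast that chose both genes, so this test is not wholly free of the choice.

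The animals were 6 mice aged 8 to 9 weeks, 3 labelled WT and 3 labelled KO for Kpna4, which encodes the nuclear import receptor importin α4. Every mouse had been given lipopolysaccharide (LPS), an inflammatory component of bacterial outer membranes, at 1 mg/kg into the peritoneum, and was dissected 20 h later. Microglia and astrocytes were sorted by flow cytometry from dissociated whole brain of each mouse, so there are 4 groups with 3 libraries each: WT microglia, KO microglia, WT astrocytes and KO astrocytes. Replicates are separate animals by their numbers in the labels, and the microglia and astrocyte libraries with the same genotype and number come from 1 animal. All groups carry the LPS treatment, mice without LPS were not analysed here, and the sources used here do not say how the KO allele was made.

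Integrins, the receptors that hold cells to the matrix around them, pass force to actin through a complex of ILK, a PINCH protein and a parvin. ILK is a pseudokinase that serves as the hub, PINCH-1 (from Lims1) binds one end of it, and a parvin binds the other end and reaches actin. Alpha-parvin is widespread, beta-parvin overlaps with it, and gamma-parvin is the parvin of blood-derived cells. Non-muscle myosin II pulls on the same actin: Myh9 and Myh10 encode the heavy chains of its IIA and IIB forms, IIA being the main form of white blood cells, and Myl9 encodes a regulatory light chain best known from smooth muscle.

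Of the 8 genes, 7 had entries among the RefSeq promoter windows of the assembly GRCm38.p6, and Parva had none. The 250 bases before the start site are shown for the neighbouring relatives Parvb and Parvg. Parvb did not pass the test between the cell types given below, and Parvg did. They are also shown for the heavy chains Myh9 and Myh10, which went in different directions, and for Myl9. Myl9 had nearly all of its counts in astrocyte libraries. Parvg has 2 windows, and both are shown. Each is written 5′ to 3′ along the gene, and capitals mark the matches, on either strand, to GGGCGG (the GC box), CCAAT (the CCAAT box), GAGGAAGT (a site of the myeloid factor PU.1) and the CArG box bound by SRF.
Parvb, chr15:84231793-84232042, plus strand: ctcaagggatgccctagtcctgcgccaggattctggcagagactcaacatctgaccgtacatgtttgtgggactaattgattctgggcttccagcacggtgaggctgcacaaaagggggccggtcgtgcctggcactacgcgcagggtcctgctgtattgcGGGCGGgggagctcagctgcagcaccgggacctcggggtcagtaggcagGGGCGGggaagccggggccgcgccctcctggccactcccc
Parvg first window, chr15:84324470-84324719, plus strand: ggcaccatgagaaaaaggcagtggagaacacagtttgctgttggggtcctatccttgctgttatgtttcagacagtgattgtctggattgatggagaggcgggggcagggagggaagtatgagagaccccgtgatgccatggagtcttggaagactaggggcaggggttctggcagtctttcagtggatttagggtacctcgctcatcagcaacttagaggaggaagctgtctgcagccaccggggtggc
Parvg second window, chr15:84325869-84326118, plus strand: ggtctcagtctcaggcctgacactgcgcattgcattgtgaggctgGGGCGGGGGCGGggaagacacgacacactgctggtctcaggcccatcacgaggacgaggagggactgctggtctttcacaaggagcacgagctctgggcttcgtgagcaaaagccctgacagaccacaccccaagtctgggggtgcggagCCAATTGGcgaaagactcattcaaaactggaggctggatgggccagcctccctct
Myh9, chr15:77842176-77842425, minus strand: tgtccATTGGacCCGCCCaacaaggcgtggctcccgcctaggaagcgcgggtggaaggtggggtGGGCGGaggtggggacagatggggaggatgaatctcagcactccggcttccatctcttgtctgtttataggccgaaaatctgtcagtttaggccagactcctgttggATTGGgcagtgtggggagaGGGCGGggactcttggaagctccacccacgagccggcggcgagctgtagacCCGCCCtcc
Myh10, chr11:68691665-68691914, plus strand: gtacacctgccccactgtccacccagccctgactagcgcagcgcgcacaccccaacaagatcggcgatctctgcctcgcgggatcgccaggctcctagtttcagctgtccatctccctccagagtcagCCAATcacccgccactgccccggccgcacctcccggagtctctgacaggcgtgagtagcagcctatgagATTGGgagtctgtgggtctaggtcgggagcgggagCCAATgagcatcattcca
Myl9, chr2:156775214-156775463, plus strand: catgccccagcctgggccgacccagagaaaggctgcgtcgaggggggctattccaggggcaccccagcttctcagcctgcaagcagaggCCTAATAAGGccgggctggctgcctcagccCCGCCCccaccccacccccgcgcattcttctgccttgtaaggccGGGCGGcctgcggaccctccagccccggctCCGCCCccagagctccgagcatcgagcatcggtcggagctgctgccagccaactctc

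Parvb had 2 GC boxes. The first Parvg window had none of the 4 motifs, and the second had 2 GC boxes and 2 CCAAT boxes, which overlap each other on opposite strands, while 32.7% of all 32851 windows of this length held a GC box. Myh9 had 4 GC boxes and 2 CCAAT boxes, and Myh10 had 3 CCAAT boxes and 0 GC boxes, where 33.8% of all windows held a CCAAT box. Myl9 had 3 GC boxes and 1 CArG box, a motif in 1.47% of all windows. GAGGAAGT, in 2.44% of all windows, was in none of the windows shown. A Lims1 window that is not shown held 1 match to it, 40 to 33 bases before the start site. No matches to different motifs overlapped in the windows shown. Parvb and Parvg are neighbours on chromosome 15, with start sites 92.7 kb apart. A match describes these letters only, and none of these windows was measured for binding.

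The microglia libraries held between 10.3 M and 14.5 M counts, and those of astrocytes between 10.7 M and 15.6 M. In astrocytes 8 abundant non-coding RNAs made up 26.2% to 39.5% of each library, beside 11.8% to 15.4% in microglia, which lowers the CPM of all other genes in astrocytes by comparison. The sorted cells carried their markers: 12 microglia markers, which include Csf1r, summed to 18504 to 24291 CPM in microglia and 270 to 788 CPM in astrocytes, and 12 astrocyte markers, led by Slc1a2, to 22691 to 30248 CPM in astrocytes and 469 to 1072 CPM in microglia. Kpna4 was at 84.4 ± 14.8 CPM (SD, n = 3) in microglia WT and 69.0 ± 9.41 in microglia KO, and at 49.6 ± 8.81 in astrocytes WT and 64.4 ± 18.6 in astrocytes KO. Its libraries overlapped in both cell types, so it does not separate the genotypes, and WT and KO below mean the libraries so labelled.

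In the comparison of both cell types, which averages over both genotypes, astrocytes had more Parva, Myh10 and Myl9 and microglia more Parvg, Lims1 and Myh9, while Parvb and Ilk did not pass the test. All 8 genes passed the filter on low counts, and edgeR's quasi-likelihood test called 6 of them at an adjusted p under 0.05. This has to be read against 64.6% of all 17294 genes tested, and 3 of the calls carry no support: those of Parva and Myh10 hold the libraries that chose them, and Myl9 passed the filter through the astrocytes in which it is high. Among all genes 36.4% were called higher in astrocytes and 28.2% lower, beside 3 of the 8 each. The 6 libraries of each type did not overlap in CPM for the same 6 genes, as for 46.5% of all genes (21.7% higher and 24.9% lower in astrocytes). The median log2 fold change of all genes was 0.19, and it was -0.09 when libraries were scaled by their totals only.

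**Figure D1:**
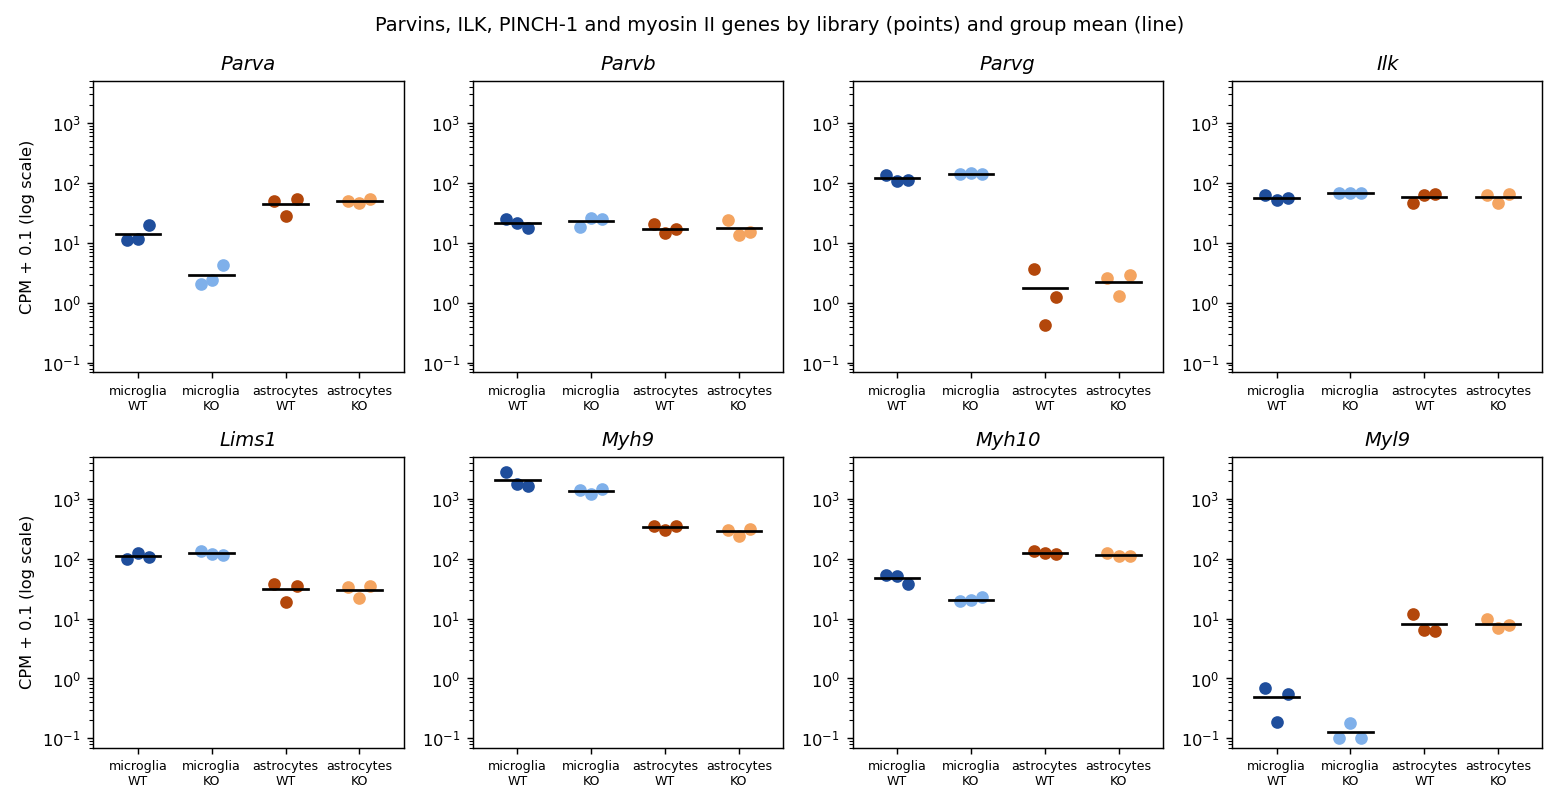
CPM plus 0.1 on a log axis for each of the 8 genes in the 12 libraries, with points for libraries (replicates 1 to 3 from left to right) and lines for group means; levels of different genes are not scaled by length. Parvg, Lims1 and Myh9 are higher in both microglia groups and Parva, Myh10 and Myl9 in both astrocyte groups, while Parvb and Ilk overlap between the cell types.

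Among the parvins, Parvg had the largest difference. It was at 138, 107 and 111 CPM in microglia WT and at 142, 146 and 138 in microglia KO, against 3.60, 0.325 and 1.16 CPM in astrocytes WT and 2.47, 1.21 and 2.76 in astrocytes KO. Every microglia library lay far above every astrocyte library, which held only 4 to 50 Parvg counts each. The log2 fold change, astrocytes minus microglia, was -5.81 (SE 0.38, edgeR adjusted p = 6.14e-09). The astrocyte libraries had 1.32% ± 1.18 (SD, n = 3 animals) of the Parvg CPM of the same animal's microglia in WT and 1.52% ± 0.614 in KO. For the 12 microglia markers summed, the same share was 2.61% ± 1.34 in WT and 2.19% ± 0.284 in KO, so in the mean Parvg in astrocytes was no higher relative to microglia than the markers of microglia were.

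Parva, the widespread parvin, ran the other way. It was at 49.6, 28.2 and 54.4 CPM in astrocytes WT and 50.7, 46.5 and 54.1 in astrocytes KO, against 11.0, 11.6 and 19.5 in microglia WT and 1.94, 2.26 and 4.13 in microglia KO. All 6 astrocyte libraries were above all 6 microglia libraries, the nearest being astrocytes WT replicate 2 and microglia WT replicate 3. Among the WT animals alone the log2 fold change was 1.82 (SE 0.34, edgeR adjusted p = 0.00134). It was 3.19 (SE 0.26) over all animals and 4.48 among the KO animals alone, values that hold the low microglia libraries by which Parva was picked and are given without a test.

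Parvb stayed level. It was at 24.6, 21.2 and 17.7 CPM in microglia WT, 18.1, 25.7 and 25.1 in microglia KO, 20.2, 14.6 and 16.7 in astrocytes WT and 23.6, 13.5 and 15.2 in astrocytes KO. The ranges of all 4 groups overlapped. The log2 fold change between the cell types was -0.08 (SE 0.22, edgeR adjusted p = 0.759). Over the alternatives it stayed negative, from -0.46 without KO replicate 1 to -0.04 with a minimum count of 50, and was never called.

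Ilk, the hub of the complex, did not pass the test either. It was at 61.7, 51.5 and 55.5 CPM in microglia WT, 67.3, 66.8 and 66.7 in microglia KO, 45.8, 61.9 and 65.2 in astrocytes WT and 62.3, 45.3 and 63.9 in astrocytes KO. The lowest values were single astrocyte libraries of each genotype, and both types overlapped. Its log2 fold change was 0.18 (SE 0.15, edgeR adjusted p = 0.307), next to the median of all genes. The sign turned to -0.10 when libraries were scaled by their totals only, and it also turned without WT replicate 2 (-0.09), KO replicate 1 (-0.03) or KO replicate 3 (-0.07).

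Lims1, which encodes PINCH-1, was higher in microglia. It was at 97.0, 124 and 106 CPM in microglia WT and 134, 118 and 116 in microglia KO, and at 37.9, 18.5 and 35.1 in astrocytes WT and 33.2, 21.8 and 34.7 in astrocytes KO. The types did not overlap, and astrocytes WT and KO overlapped. The log2 fold change was -1.67 (SE 0.17, edgeR adjusted p = 6.75e-07). Its close copy Lims2, which encodes PINCH-2, did not pass the filter on low counts in the comparison.

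The heavy chains of non-muscle myosin II split by cell type. Myh9 was at 2752, 1772 and 1597 CPM in microglia WT and 1389, 1209 and 1457 in microglia KO, against 350, 298 and 345 in astrocytes WT and 299, 241 and 309 in astrocytes KO. Microglia lay above astrocytes in every library, and microglia WT replicate 1 stood above the other microglia. The log2 fold change was -2.17 (SE 0.18, edgeR adjusted p = 5.73e-08). Myh10 was at 133, 122 and 121 CPM in astrocytes WT and 124, 111 and 109 in astrocytes KO, against 52.5, 50.9 and 37.7 in microglia WT and 19.3, 20.0 and 22.7 in microglia KO. Here astrocytes lay above microglia in every library, and among the WT animals alone the log2 fold change came to 1.58 (SE 0.23, edgeR adjusted p = 0.000338). It was 2.23 (SE 0.16) over all animals and 2.80 among the KO animals, again with the values that chose the gene and without a test.

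Myl9, the regulatory light chain, was a low gene seen almost solely in astrocyte libraries. It was at 11.6, 6.42 and 6.15 CPM in astrocytes WT and 9.61, 6.79 and 7.64 in astrocytes KO, and at 0.603, 0.0897 and 0.456 in microglia WT and 0, 0.0836 and 0 in microglia KO. The microglia libraries held 8, 1 and 6 counts in WT and 0, 1 and 0 in KO, and a count of 0 allows up to 0.291 CPM in KO replicate 1 and 0.207 CPM in KO replicate 3, by counting error only. The fitted log2 fold change was 6.29 (SE 0.69). It rests on very few microglia counts, and the gene passed the filter through the astrocyte libraries, so no test is given. In microglia WT, Myl9 was at 4.67% ± 3.05 (SD, n = 3 animals) of the astrocyte CPM of the same animal, beside 2.88% ± 0.831 for the astrocyte markers summed. In microglia KO it was at 0.410% ± 0.711, beside 1.91% ± 0.311 for the markers. The astrocyte libraries also held more RNA of mural (vessel wall) cells. The 10 mural markers summed in the mean to 429 CPM in astrocytes WT and 378 in astrocytes KO. They summed to 29.5 CPM in microglia WT and 14.4 in microglia KO. What part mural cells have in Myl9 was not tested.

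Ratios of relatives within a library depend little on how libraries are scaled, apart from the small amount added to each gene. On the log2 scale, with 0.5 CPM added to each gene, Myh10 to Myh9 was -5.40 ± 0.29 (SD, n = 3) in microglia WT, -6.00 ± 0.13 in microglia KO, -1.40 ± 0.11 in astrocytes WT and -1.29 ± 0.19 in astrocytes KO. Both types thus had more Myh9 than Myh10 counts, and the excess was much larger in microglia. Parva to Parvg was -3.07 ± 0.56 in microglia WT, -5.50 ± 0.52 in microglia KO, 4.59 ± 0.85 in astrocytes WT and 4.32 ± 0.40 in astrocytes KO. Parvb to Parvg was -2.46 ± 0.15, -2.62 ± 0.28, 3.30 ± 0.93 and 2.78 ± 0.44 in the same order. Both parvin ratios changed sign between the cell types in all 6 animals. Astrocytes minus microglia, the log2 ratios differed by 4.35 for Myh10 to Myh9, 8.74 for Parva to Parvg and 5.58 for Parvb to Parvg. With 0.1 or 1 CPM added in place of 0.5, they were 4.37 or 4.33, 9.23 or 8.29, and 5.95 or 5.25. The first 2 differences hold the KO microglia values that chose Myh10 and Parva and are given without a test. For Parvb to Parvg the exact 2-sided permutation test of 6 against 6 libraries gave p = 0.00216 (also after adjustment over the 3 ratios), and exact sign flips over the 6 animals, which keep their pairing, gave p = 0.03125, each the smallest p that the test can give. In the WT animals alone the differences were 4.001, 7.66 and 5.76, where 3 against 3 libraries cannot go below the exact permutation p of 0.1 found for each.

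**Figure D2:**
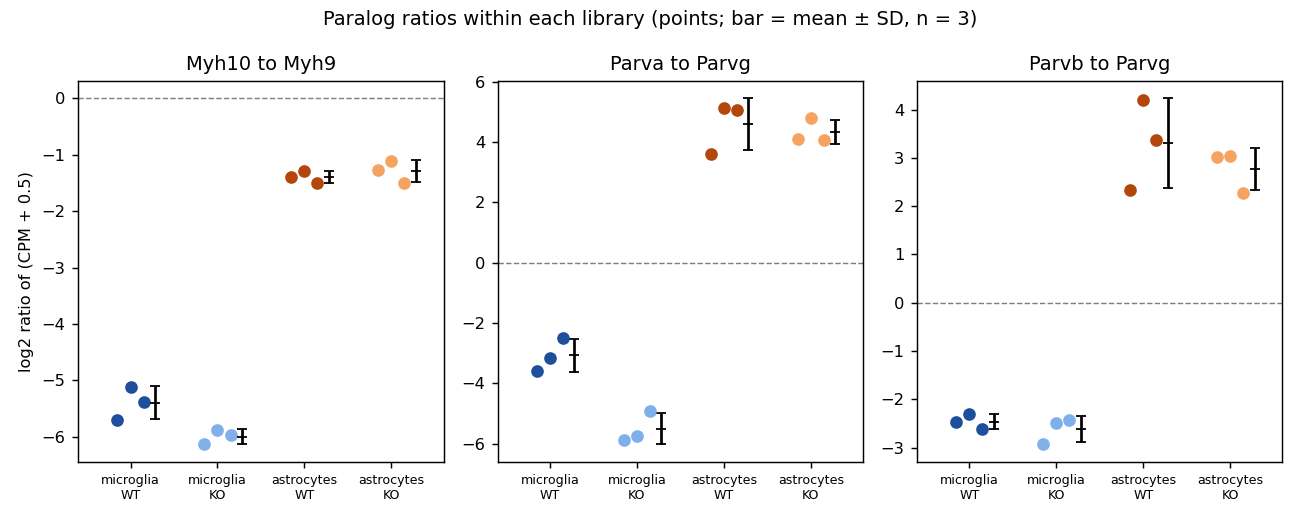
Log2 ratios of relatives within each library, from CPM plus 0.5, with points for the 12 libraries and bars for group mean ± SD (n = 3); the dashed line marks equal CPM. Both parvin ratios lie below the line in all 6 microglia libraries and above it in all 6 astrocyte libraries, and Myh10 to Myh9 lies below the line throughout.

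Levels of different genes can be compared only per length, here as CPM per kilobase of annotated exons. In microglia WT the order of mean levels was Myh9 at 274 CPM per kilobase, Parvg at 42.1, Ilk at 30.0, Lims1 at 23.2, Parvb at 5.59, Myh10 at 5.44, Parva at 3.04 and Myl9 at 0.340. Among these neighbours only Parvb and Myh10 overlapped in their libraries, and they changed places when the longest transcript was used as the length. In astrocytes WT the order was Myh9 at 44.5 CPM per kilobase, Ilk at 30.7, Myh10 at 14.5, Parva at 9.56, Myl9 at 7.14, Lims1 at 6.49, Parvb at 4.54 and Parvg at 0.603. There Parva, Myl9 and Lims1 each overlapped with the next in the order. Parvg thus stood first among the parvins in microglia and last in astrocytes, and Myh9 led the list in both types by its mean. The same held in KO. In astrocytes KO, however, Myh9 at 38.1 ± 4.90 CPM per kilobase (SD, n = 3) overlapped with Ilk at 30.5 ± 5.49.

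The wider integrin adhesion list held 37 genes beside the 8. In it 35 genes were tested between the cell types, 9 were higher in astrocytes, 20 were higher in microglia and 6 did not pass, and the median was -1.06 on the log2 scale. Of all genes 36.4% were higher in astrocytes and 28.2% in microglia. Fermt2, the kindlin of most tissues, was at 219 ± 20.5 CPM (SD, n = 6) in astrocytes and 5.36 ± 2.11 in microglia, with a log2 fold change of 5.66 (SE 0.23). Fermt3, the blood-cell kindlin that activates integrins, was at 5.45 ± 3.37 and 334 ± 34.9 CPM, with -5.74 (SE 0.33). Itgb8, an integrin subunit that activates TGF-beta, and Vcl, which encodes the actin linker vinculin, were also higher in astrocytes, with log2 fold changes of 4.47 (SE 0.22) and 3.90 (SE 0.20). Higher in microglia were 3 integrin subunits known from white blood cells, with log2 fold changes of -5.30 (SE 0.29) for Itgam, -5.25 (SE 0.23) for Itgb2 and -5.08 (SE 0.82) for Itgax. Itga4, another such subunit, was not called (-0.38, SE 0.34, edgeR adjusted p = 0.353). Apart from Itgax, the called genes named so far from the list had edgeR adjusted p-values of 1.78e-09 or less. Itgax was at 0 to 0.791 CPM in astrocytes. It passed the filter through the microglia in which it is high, so no test is given for it. Itga2 was fitted at 4.32 (SE 1.77) on 0 to 3.90 CPM per library, and both types overlapped. It did not pass the filter in either cell type alone, so no test is given for it. Itga2 was called in 5 of the 13 settings of the fit that kept it. Both genes are in the counts of 9 and 20.

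The actomyosin list held 24 further genes, all tested. In it 8 were higher in astrocytes, 9 were higher in microglia and 7 did not pass, beside 64.6% of all genes called, and the median log2 fold change was -0.14. The number higher in microglia was 12 with library totals only or without KO replicate 3 (median -0.41 and -0.47), and 6 within either genotype alone. Higher in astrocytes were Cnn3, which encodes the actin-binding protein calponin-3 (log2 fold change 5.26, SE 0.25), the smooth muscle actin Acta2 (3.80, SE 0.74), Myh14, the IIC heavy chain of non-muscle myosin (3.75, SE 0.28), and Mylk, the myosin light chain kinase (2.96, SE 0.67). Myh14 thus went the way of Myh10, at 207 ± 30.5 CPM (SD, n = 6) in astrocytes and 20.7 ± 13.6 in microglia. In microglia Acta2 was at 0 to 2.89 CPM and Mylk at 0 to 5.58 CPM, so the sizes of both fold changes rest on low microglia values. Acta2 is also among the mural markers, and the part of mural cells in Acta2 and Mylk was not tested. Higher in microglia were the tropomyosin gene Tpm3 (-2.40, SE 0.16), Mrtfa, a coactivator of SRF that senses free actin (-1.93, SE 0.26), the beta-actin gene Actb (-1.77, SE 0.16) and Srf (-0.92, SE 0.24). Of these 8 genes, edgeR's adjusted p was highest for Srf, at 0.00341, and Srf overlapped between the types. The other regulatory light chains were nearer to level: Myl12a was at 28.6 ± 6.06 CPM in astrocytes and 51.4 ± 5.57 in microglia (log2 fold change -0.55, SE 0.20, edgeR adjusted p = 0.0291), and Myl12b at 39.1 ± 9.93 and 57.3 ± 13.2 (-0.27, SE 0.18, edgeR adjusted p = 0.209).

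**Figure D3:**
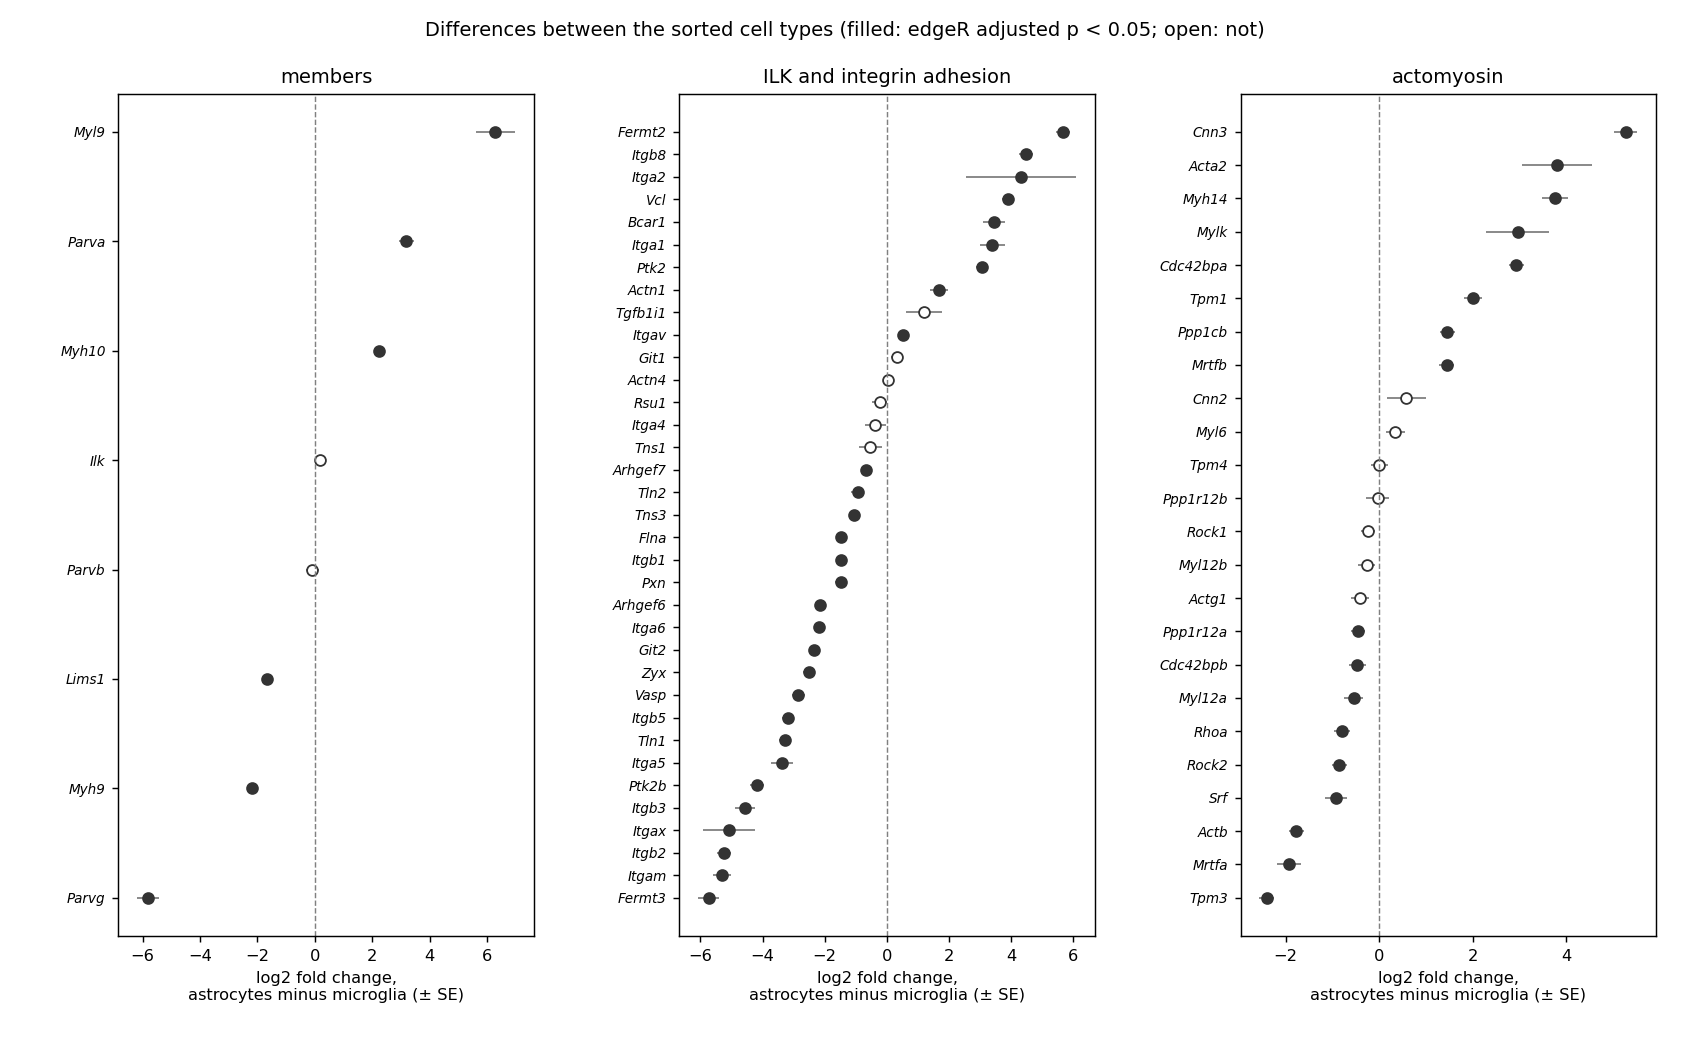
Log2 fold changes, astrocytes minus microglia, with SE from edgeR for the 8 genes, the adhesion list and the actomyosin list; filled points passed an adjusted p under 0.05. The 8 genes run from -5.81 for Parvg to 6.29 for Myl9, and 20 of 35 tested adhesion genes are filled on the microglia side.

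Between the genotypes in astrocytes, a contrast that played no part in the choice, none of the 8 genes passed the test. All 8 passed the filter on low counts, and edgeR called 0 of them. It called 0% of the 15755 genes tested, with 373 at an unadjusted p under 0.05. DESeq2 called 0 of the 8 and 4 of all genes. The WT and KO libraries overlapped for all 8 genes, whereas they did not overlap for 8.13% of all genes. The log2 fold changes, KO minus WT, were 0.33 (SE 0.26) for Parva, 0.12 (SE 0.32) for Parvb, 0.42 (SE 1.15) for Parvg, 0.10 (SE 0.22) for Ilk and 0.08 (SE 0.29) for Lims1. They were -0.11 (SE 0.17) for Myh9, -0.0036 (SE 0.20) for Myh10 and 0.10 (SE 0.46) for Myl9. Parvg and Myl9 had the fewest counts, 4 to 50 and 73 to 161 per library, and the widest errors, so small differences in them were not detectable at this depth. In the adhesion list 0 of 33 tested genes were called, and Vcl had the smallest unadjusted p with 175 ± 4.18 CPM in WT and 215 ± 26.2 in KO (log2 fold change 0.41, SE 0.18, edgeR adjusted p = 0.999). In the actomyosin list 0 of 24 were called, and Cdc42bpb, a kinase upstream of myosin II, came first with -0.37 (SE 0.24).

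In microglia the values that chose Parva and Myh10 were as follows. Parva held 146, 129 and 256 counts in the WT libraries and 20, 27 and 60 in the KO libraries, giving 14.0 ± 4.73 and 2.78 ± 1.19 CPM (SD, n = 3). Its log2 fold change was -2.34 (SE 0.45), and it ranged from -2.73 to -2.05 when single replicates were left out. Myh10 was at 47.0 ± 8.12 CPM in WT and 20.7 ± 1.82 in KO, with a log2 fold change of -1.21 (SE 0.24) and a range of -1.36 to -1.12. In both genes the lowest WT library was above the highest KO library. edgeR called 0 of all 14191 genes tested between the microglia groups, with 1053 at an unadjusted p under 0.05, and DESeq2 called 41. In bulk libraries such as these, fewer cells of a type and less RNA per cell cannot be told apart.

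Of the other genes Myh9 was also lower in KO microglia, and the other parvins were not. Parvg, the parvin that leads in microglia, was at 118 ± 16.7 CPM in WT and 142 ± 3.84 in KO (log2 fold change 0.23, SE 0.19), with WT replicate 1 and KO replicate 3 nearly touching. Parvb was at 21.2 ± 3.43 and 23.0 ± 4.20 CPM (0.09, SE 0.27). Ilk was at 56.2 ± 5.17 and 66.9 ± 0.349 CPM (0.23, SE 0.19), and Lims1 at 109 ± 13.7 and 123 ± 10.1 CPM (0.15, SE 0.19). Myh9 was at 2040 ± 622 and 1352 ± 129 CPM (-0.63, SE 0.23). Without WT replicate 1, its highest library, the log2 fold change of Myh9 was -0.34. Myl9 did not pass the filter. Of the 7 genes that did, 5 did not overlap between WT and KO, with Parva, Myh9 and Myh10 lower and Parvg and Ilk higher in KO, where 13.1% of all genes tested did not overlap (6.53% higher and 6.57% lower in KO). Parva and Myh10 were chosen for this, so nothing is read from the count.

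In the adhesion list 30 of 34 tested genes had a negative log2 fold change in microglia, KO minus WT, with a median of -0.35 beside -0.0013 for all genes, and edgeR called 0 of them. Leaving out WT replicate 1 gave a list median of -0.26, and leaving out KO replicate 2 gave -0.24. The WT and KO libraries did not overlap, with KO lower, for 8 genes of it, Vcl, Itgb3, Itgb5, Itgb8, Itgam, Itgax, Actn4 and Tns3. Of all genes tested 6.57% were lower in KO in this way. With the smallest p-values among the list, Itgb8 was at 26.2 ± 8.49 CPM in WT and 14.2 ± 5.32 in KO, Itgb3 at 69.0 ± 3.70 and 48.3 ± 4.11, and Itgb5 at 1441 ± 414 and 1007 ± 125. In the actomyosin list 14 of 24 genes were negative, with a median of -0.08 that turned to 0.017 without WT replicate 1 and to 0.034 without KO replicate 3. Its leading genes were Myh14 with -1.44 (SE 0.40), Srf with -0.77 (SE 0.28) and Cnn3 with -1.15 (SE 0.43). These values share their libraries with the choice of Parva and Myh10.

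Most marker lists of other cells had a lower summed mean in KO microglia, but only the ependymal sums did not overlap between WT and KO. Of single markers, 4 of 8 for oligodendrocytes and 1 of 6 for border macrophages had a lower mean in KO. The median log2 fold change of all genes tested in microglia was -0.0013. All 12 astrocyte markers had a lower mean in KO, and their sum was 499 to 1072 CPM in WT and 469 to 534 CPM in KO. The 7 choroid plexus markers, led by Ttr, were also all lower in mean, with sums of 895 to 2258 CPM in WT and 361 to 912 CPM in KO. So were the 8 endothelial markers, led by Slco1a4 in WT and Pecam1 in KO, with sums of 22.8 to 85.2 and 23.5 to 31.0 CPM. Of 10 mural markers, led by Rgs5 and with the smooth muscle genes Acta2, Tagln and Myh11 among them, 7 had a lower mean in KO, with sums of 21.6 to 35.4 and 8.20 to 22.7 CPM and Cnn1 at 0 in all. The 5 ependymal markers, led by Foxj1, summed to 6.56 to 11.3 CPM in WT and 3.88 to 5.52 CPM in KO, without overlap. The 8 oligodendrocyte markers, led by Mbp, summed to 287 to 1752 and 324 to 804 CPM, the 7 fibroblast markers, led by Col1a2, to 10.9 to 23.4 and 8.06 to 15.0 CPM, and the 12 microglia markers to 18504 to 22819 and 19266 to 24291 CPM. The 6 markers of oligodendrocyte precursors, led by Vcan, summed to 10.3 to 17.04 and 5.35 to 11.3 CPM, and the 9 neuron markers, led by Snap25, to 15.8 to 23.9 and 12.05 to 19.2 CPM. Of other blood-derived cells, 7 peripheral myeloid markers, led by S100a9, summed to 5.29 to 27.9 CPM in WT and 6.19 to 12.02 CPM in KO, 6 border macrophage markers, led by Mrc1 in WT and F13a1 in KO, to 172 to 387 and 238 to 363 CPM, and 5 platelet markers, led by Gp1bb in WT and Treml1 in KO, to 4.26 to 7.81 and 2.81 to 4.68 CPM. The 6 lymphocyte markers, led by Cd3d, were at or near 0 in every library. In each genotype replicate 3 was the library with the most Parva. It also had the highest choroid plexus, oligodendrocyte, oligodendrocyte precursor, mural and neuron sums, and the highest microglia sum. Myh10 was lowest in replicate 3 among WT and highest in replicate 3 among KO. What part these other cells have in the values of the 8 genes was not tested, apart from the following measurements for astrocytes.

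**Figure D4:**
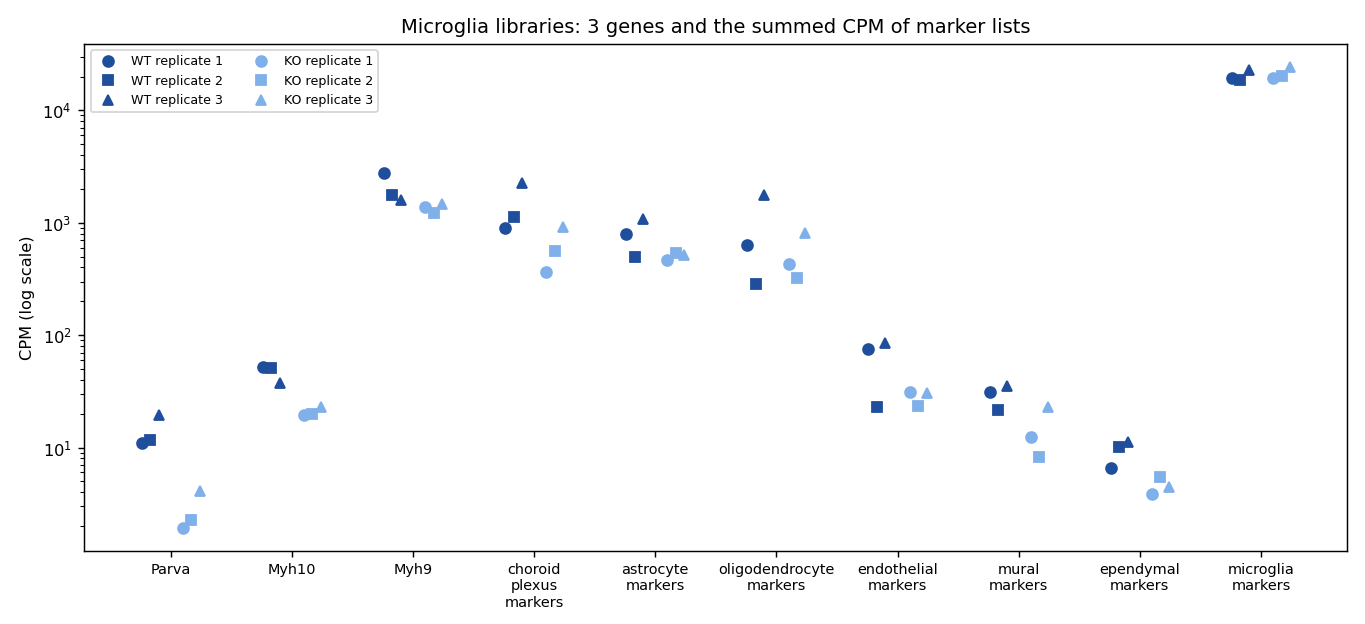
CPM on a log axis in the 6 microglia libraries for 3 genes and for the summed CPM of marker lists, with 1 point per library. Parva and Myh10 are lower in all KO libraries than in all WT libraries, and the astrocyte and choroid plexus sums overlap between WT and KO with a higher WT mean.

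For Parva and Myh10 the level in microglia could be set beside that in astrocytes of the same animal. Parva in microglia was at 22.2%, 41.0% and 35.8% of the astrocyte CPM for WT mice 1 to 3 and at 3.83%, 4.85% and 7.64% for KO mice 1 to 3. Myh10 was at 39.6%, 41.8% and 31.1% in WT and at 15.5%, 18.0% and 20.8% in KO. The astrocyte markers summed were at 2.63%, 2.20% and 3.81% in WT and at 1.64%, 2.25% and 1.85% in KO. In every animal both genes were thus above the share of the astrocyte markers summed. The 12 single markers had mean shares of 1.23% to 4.56% in WT and 0.829% to 3.82% in KO. Among genes that were higher in astrocytes, Fermt2 had 2.92% ± 1.304 (SD, n = 3) in WT and 2.03% ± 0.646 in KO, close to the markers, while Vcl had 11.6% ± 1.21 and 5.67% ± 1.84 and Myh14 13.1% ± 4.65 and 5.95% ± 2.73.

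**Figure D5:**
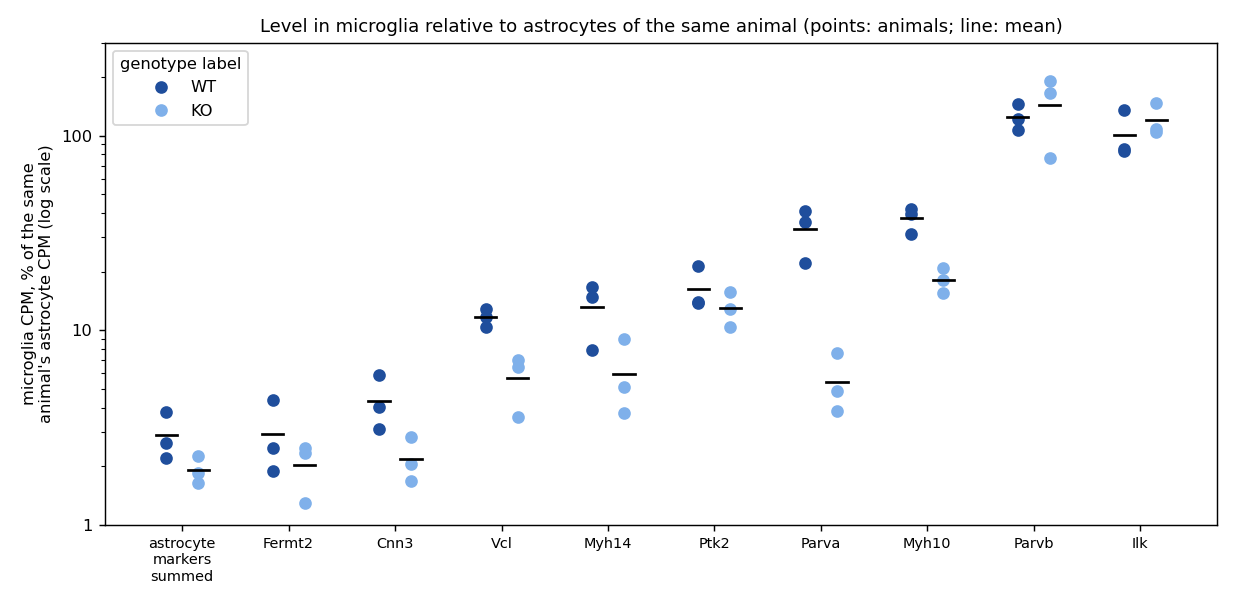
CPM in microglia as a percent of the astrocyte CPM of the same animal, on a log axis, for summed astrocyte markers and 9 genes; points are the 3 animals of each genotype and lines are means. In the mean Parva is at 33.0% in WT and 5.44% in KO and Myh10 at 37.5% and 18.1%. Both are above the markers at 2.88% and 1.91%. Parvb is at 124% in WT and 144% in KO in the mean, and Ilk at 101% and 120%.

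The marker share also gives the CPM that astrocyte RNA at that share would bring. For Parva it was 0.621 to 2.07 CPM in microglia WT and 0.831 to 1.05 CPM in microglia KO. What remained after taking it off was 12.7 ± 4.13 CPM (SD, n = 3, range 9.70 to 17.4) in WT and 1.82 ± 1.14 CPM (range 1.11 to 3.13) in KO. The remainder depends on the markers used. Slc1a3, the highest single marker in KO, was at 3.82% there in the mean. Parva was at 3.83% in KO mouse 1, so at the share of Slc1a3 almost none of it would remain in that mouse. For Myh10 the share was 2.68 to 4.62 CPM in WT and 2.01 to 2.50 CPM in KO, and 43.5 ± 8.97 CPM (range 33.1 to 49.1) and 18.5 ± 1.94 CPM (range 17.2 to 20.7) remained. In KO microglia the astrocyte share came to 0.958 of 2.78 CPM of Parva in the mean, and in WT to 1.33 of 14.0 CPM. For Myl9 the share was 0.141 to 0.304 CPM in WT and 0.141 to 0.158 CPM in KO, around the 0 to 0.603 CPM measured in microglia. The step takes astrocytes of the brain mixture to be like the sorted ones, and it covers no other cell type.

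The genes whose levels went most like those of a member were ranked by Pearson's r of log2(CPM + 0.5) over the 12 libraries, among 11297 genes with a mean of at least 5 CPM. These values share the cell type difference and the libraries, and they are a description. For Parva the closest were Slc4a3 (r = 0.987), Cttnbp2 (0.983), Igf2r (0.980) and Ankrd35 (0.977). Igf2r, the receptor that carries mannose-6-phosphate-tagged enzymes, was at 22.4 CPM in microglia WT and 4.99 in microglia KO in the mean, beside 61.2 and 58.3 in astrocytes WT and KO. For Parvg they were Themis2 (0.998), Irf8 (0.997), Rab3il1 (0.997) and Sla (0.997), and Irf8, a transcription factor of microglia, was at 247 and 299 CPM in microglia and 4.86 and 6.64 in astrocytes. For Myh10 they were Aifm2 (0.989), Adam11 (0.985), Cttnbp2 (0.984) and Fmo1 (0.982). For Myh9 they were Soga1 (0.996), Mfsd12 (0.996), Phrf1 (0.995) and Itgb5 (0.994), and for Myl9 Adhfe1 (0.995), Slc30a10 (0.995), Slc6a11 (0.993) and Phactr3 (0.993). A match this close was common for the genes with the widest gaps: 1201 genes had an r of at least 0.95 with Parvg and 76 with Parva. Over the 6 microglia libraries alone, among 9764 genes, Hipk2 (0.989), Sod3 (0.989), Igf2r (0.988) and Synm (0.987) were closest to Parva. Closest to Myh10 there were Tmco4 (0.989), Rubcn (0.988), Pld2 (0.988) and Lamb2 (0.986). These libraries hold the values that chose both genes, so genes with a like gap between WT and KO rank high. An r of at least 0.95 was reached there by 40 genes for Parva and 22 for Myh10.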

How the data were processed

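Per the labels' protocols, SMART-Seq HT full-length cDNA of sorted cells went into Nextera libraries. No molecular identifiers are named, so counting limits cover counting error only. The authors deposited estimated counts per gene symbol, 1 table for each cell type, and the submitters' processing notes name STAR 2.7.10b, RSEM 1.3.3, limma and the build GRCm39; the sources used here give no annotation. The values are not normalized, and 3.44% to 5.27% of those above 0 were not whole (tolerance 0.001). They were rounded to whole numbers. All 12 columns were matched to libraries by name.

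CPM were computed over library totals. edgeR 4.0.16 in R 4.3.3 (quasi-likelihood test, TMM, default filter with a minimum count of 10, Benjamini-Hochberg over all genes, adjusted p under 0.05) was fitted to all 12 libraries for astrocytes minus microglia and to the 6 libraries of a cell type for KO minus WT. edgeR was tested on simulated data. The main fits and the fit of WT animals alone had no term for the animal, although each mouse gave a library of both cell types. An animal block was used only in an alternative over all 12 libraries. For Parva and Myh10 the p printed is from the 6 libraries of WT animals alone, since the fit of all 12 holds the low KO microglia libraries. The WT microglia libraries were the other side of the contrast that chose them. Alternatives used DESeq2 1.42.0, limma 3.58.1 (voom), other scalings and filters, blocks and left-out replicates. Gene lengths came from GENCODE exons, and promoter windows from RefSeq on GRCm38.p6, which is not the authors' build.

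The 8 genes, the lists and the alternatives were chosen with earlier results of these data known. The text names the 8 genes, Kpna4, per list the 4 called genes with the largest rise and fall between the cell types, the genes with the smallest p between genotypes (up to 3), the top gene of a marker list (1 is not reported here), and the 4 genes most like a member. Myl12a, Myl12b and the adhesion genes that did not overlap in microglia, Itga4 and Lims2 were named after their values were seen.

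Microglia and astrocyte libraries are paired by animal number: deviations from group means correlated at 0.0329, 0.153 and 0.206 in WT animals and 0.117, -0.0141 and 0.188 in KO animals.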

Additional observations from a re-analysis of the deposited data

How the results depend on the processing

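Between the cell types the same 6 genes were called in all 16 alternatives, and the direction of 7 of the 8 genes held. Of all genes, 7958 to 12019 were called in these alternatives. The calls of Parva and Myh10 are read in the WT animals alone, and that of Myl9 is not read. Ilk turned to -0.0961 with library totals only and ranged from -0.0876 to 0.31 with single replicates left out. The log2 ratios of Myh10 to Myh9, Parva to Parvg and Parvb to Parvg differed by 4.001, 7.66 and 5.76 in WT animals only. Each was at the smallest exact permutation p of 0.1. In KO animals only they differed by 4.70, 9.82 and 5.39, with that same p for Parvb to Parvg. The ratios with Myh10 and Parva hold the values that chose these genes there and are given without a test. In astrocytes 0 of the 8 genes were called in all 15 alternatives for KO minus WT. Of all genes, those called numbered 4 with DESeq2, 17 without the filter and 0 to 1 with replicates left out. Several small astrocyte differences turned. Myh10 was at 0.011 with DESeq2, 0.011 with its size factors and 0.0028 in 1 fit of all libraries. With library totals only, Ilk was at -0.0097, Lims1 at -0.029 and Myl9 at -0.0074. With single replicates left out, the ranges were -0.0738 to 0.264 for Parvb, -0.0582 to 1.64 for Parvg, -0.0411 to 0.196 for Ilk, -0.156 to 0.285 for Lims1, -0.114 to 0.0774 for Myh10 and -0.101 to 0.460 for Myl9. In microglia the genes called for KO minus WT numbered 41 with DESeq2 (37 lower), 121 without the filter (110 lower), 41 in 1 fit of all libraries and 0 to 2 with replicates left out. The cause of these changes was not tested.

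With the replicate number as a replicate block, 30 microglia genes were called, all lower in KO, and 0 astrocyte genes. No label pairs a WT with a KO animal. Deviations of same-numbered WT and KO libraries correlated at 0.0906, 0.0735 and 0.319 for the microglia pairs. They correlated at -0.0148, 0.0757 and 0.416 for the astrocyte pairs. Differently numbered pairs ran from -0.235 to 0.149 in microglia and from -0.277 to 0.186 in astrocytes. The pair of replicate 3 was the highest in each cell type. What its libraries share beyond the number was not tested. With the animal as a block, 6 of the 8 genes were called between the cell types and 10802 of all genes, beside 11166. The same limits hold there for Parva, Myh10 and Myl9. Few counts limit Myl9 in microglia and Parvg in astrocytes.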
